A study of Mus musculus with 37 samples.

Results

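The kinesin motor genes of the mouse lung were followed through the last days of gestation and birth in 2 inbred strains. Members were taken by symbol, as every gene named Kif with a number, Kifc with a number or Klc with a number, and each was read by a probe set that carried its symbol alone. This gave 42 of the 19938 genes that had such a probe set. By their known roles, 12 were grouped as mitotic kinesins, 9 as ciliary kinesins, 17 as transport kinesins with the light chains of kinesin-1, and 4 as other kinesins. Kifc1, Kif28 and Klc2 had no probe set of their own among the 35556 on the array and were not analysed here. Kif14, Kif6, Kif7, Kif1c and Kif26b had 2 probe sets, and the one with the higher mean was used. The highest group mean of Kif2b, Kif17, Kif19a, Kif5a and Kif5c stayed at or under the median of all probe sets (6.41 on the log2 scale), while the other 37 members exceeded it in at least 1 group. Levels of different genes were not compared, because each probe set binds its target with its own strength.

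The arrays measured RNA from the whole right lung of male pups, with 3 lungs of a litter pooled into 1 replicate and 3 litters in each group. C57BL/6J mice (B6), which are born at E19.5, were sampled daily over the span E15.5 to E18.5 and on the day of birth (PN0). A/J mice, which are born a day later at E20.5, were sampled at the same times and also at E19.5 and E20.5, so that B6 lungs at PN0 were a day younger than A/J lungs at PN0. The labels name no engineered allele and no treatment, and E15.5 served as the baseline of each strain. The 12 groups held 37 arrays, and array 2b of B6 at E18.5 was averaged with array 2 of that group, which left 36 replicates. The values are log2 intensities after RMA normalization, and array medians lay between 6.34 and 6.54. A gene was called changed when limma, fitted to all 21789 probe sets with 1 symbol, gave a Benjamini-Hochberg adjusted p under 0.05 and a change of at least 1.5-fold. The tests were two-sided, and SE is limma's moderated standard error.

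Kinesins are motor proteins that turn the energy of ATP into steps along microtubules or into the shortening of microtubule ends. Mitotic kinesins build the spindle, move chromosomes and close the division, and are made mostly by dividing cells. Ciliary kinesins carry cargo along the cilium or set its length and beat, in the single primary cilium of many cell types and in the motile cilia of airway cells. Transport kinesins haul vesicles, mitochondria and other organelles, in neurons and in most other cells.

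The mitotic kinesins fell steeply in both strains from E15.5 to PN0, whereas the ciliary and transport kinesins changed less between these times and in both directions. In B6 lung, 11 of the 12 mitotic kinesins were lower at PN0 than at E15.5, with a median log2 change of -2.83 over the class. In A/J lung the same comparison also gave 11 lower, with a median of -3.34. The median over all probe sets was 0.00 in B6 and -0.04 in A/J, and 13.4% of all probe sets fell and 12.7% rose in B6, while 11.8% fell and 13.7% rose in A/J. The 9 ciliary kinesins had a median change of -0.18 in B6 (1 rose, 1 fell) and -0.13 in A/J (2 rose, 1 fell). For the 17 transport kinesins the median was 0.05 in B6 (none rose, 2 fell) and 0.03 in A/J (1 rose, 1 fell). In bulk lung RNA, fewer cells of a type and less RNA per cell cannot be told apart.

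**Figure D1:**
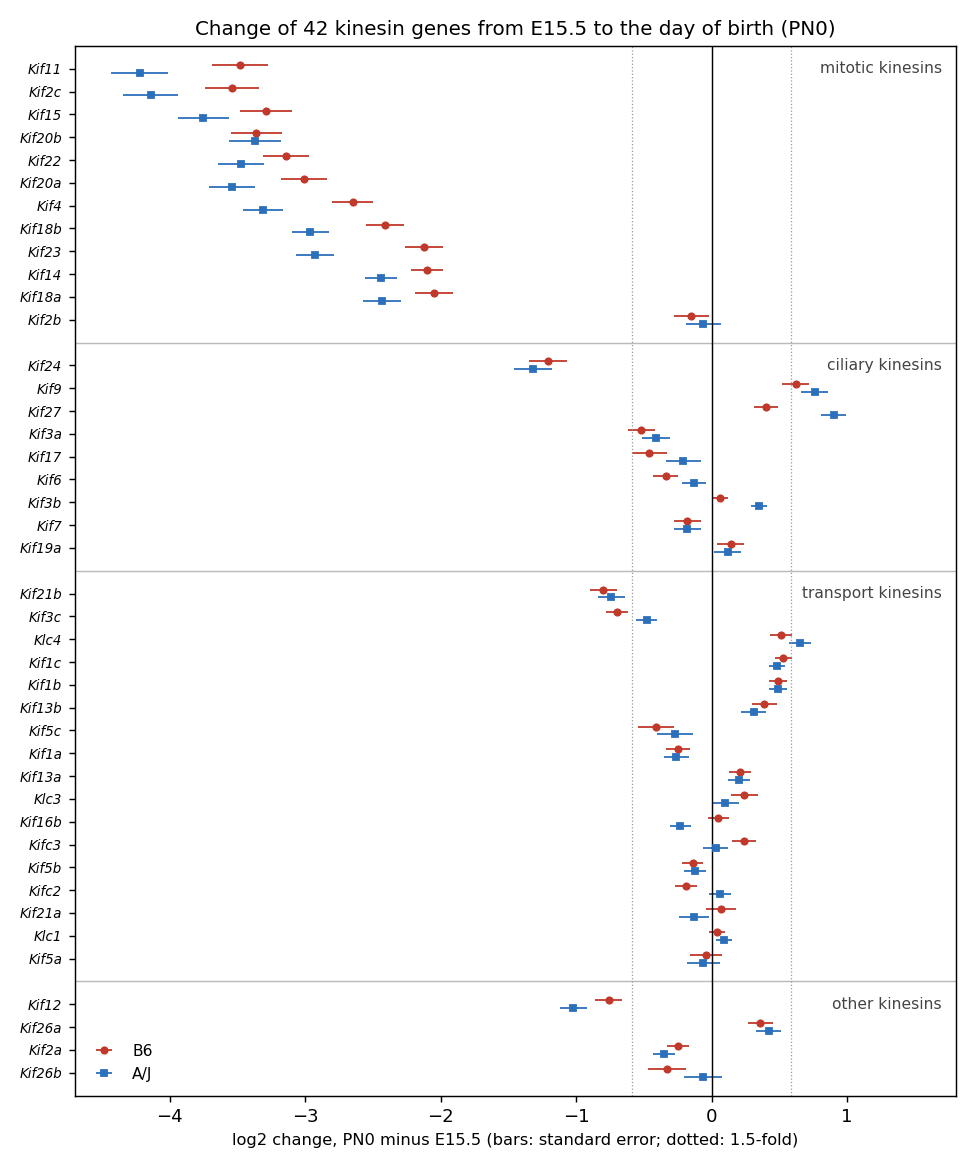
Log2 change from E15.5 to PN0 (x axis) of each of the 42 kinesin genes (y axis, grouped by class) in B6 and A/J lung, with bars of 1 SE and the limits of a 1.5-fold change. All mitotic kinesins other than Kif2b lie far to the left, between -4.22 (Kif11 in A/J) and -2.05 (Kif18a in B6), and the other classes lie between -1.32 and 0.90.

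Averaged over both strains, the largest falls in the class were those of Kif11, Kif2c, Kif15 and Kif20b. Kif11, known as Eg5, slides antiparallel microtubules and pushes the spindle poles apart. In B6 replicates Kif11 read 10.15, 10.11 and 10.06 at E15.5, then 9.96, 9.88 and 9.91 at E16.5, 8.75, 9.06 and 9.21 at E17.5, 7.31, 8.02 and 7.15 at E18.5, and 6.77, 6.53 and 6.59 at PN0. In A/J replicates it read 9.99, 9.93 and 9.96 at E15.5, then 9.94, 9.84 and 9.92 at E16.5, 9.14, 9.11 and 8.75 at E17.5, 8.30, 8.40 and 7.97 at E18.5, 6.76, 5.65 and 6.62 at E19.5, 5.88, 5.48 and 5.39 at E20.5, and 5.43, 6.19 and 5.61 at PN0. Every replicate at E17.5 or later lay below every replicate of the same strain at E15.5 and E16.5, and the second A/J replicate at E19.5 stood apart, below the other replicates of its group. The change from E15.5 to PN0 was 11.1-fold in B6 (log2 -3.48, limma adjusted p = 6.1e-15) and 18.6-fold in A/J (log2 -4.22, SE 0.21, limma adjusted p = 5.5e-17).

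Kif2c, or MCAK, does not walk but shortens microtubule ends at centromeres. Its B6 replicates read 6.74, 6.13 and 6.19 at PN0, against 9.92, 9.95 and 9.82 at E15.5, and its A/J replicates read 5.81, 6.32 and 5.49 at PN0, against 10.08, 10.03 and 9.94 at E15.5. The PN0 replicates of both strains lay far below those at E15.5, and the fall was 11.7-fold in B6 (log2 -3.54, limma adjusted p = 1.1e-15) and 17.7-fold in A/J (log2 -4.14, limma adjusted p = 2.3e-17). Kif15 supports Kif11 in keeping the spindle bipolar. In B6 it read 6.49, 5.96 and 6.07 at PN0, against 9.59, 9.42 and 9.38 at E15.5, and in A/J it read 5.46, 6.29 and 5.46 at PN0, against 9.61, 9.59 and 9.27 at E15.5. These ranges were again far apart, with a fall of 9.78-fold in B6 and 13.5-fold in A/J. Kif20b acts in cytokinesis, and it fell 10.3-fold in each strain. Its replicates read 5.38, 5.85 and 5.18 at PN0, against 8.88, 8.90 and 8.71 at E15.5, in B6, and 5.19, 5.64 and 5.46 at PN0, against 8.82, 8.77 and 8.81 at E15.5, in A/J. No PN0 replicate came near an E15.5 replicate in either strain.

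The remaining mitotic kinesins that fell span the stages of division. The chromokinesins Kif22 and Kif4, which act on chromosome arms, changed by -3.14 and -2.65 in B6 and by -3.47 and -3.31 in A/J on the log2 scale. Kif20a, which brings the chromosomal passenger complex to the midzone, changed by -3.01 in B6 and -3.54 in A/J. Kif18a and Kif18b, which limit the length of spindle and astral microtubules, changed by -2.05 and -2.41 in B6 and by -2.43 and -2.96 in A/J. Kif23, the motor of centralspindlin, and Kif14, a cytokinesis kinesin, changed by -2.12 and -2.10 in B6 and by -2.93 and -2.44 in A/J. The second probe set of Kif14 was dimmer (mean 4.57) and did not follow, at -0.19 in B6 and 0.06 in A/J. Kif2b, a relative of Kif2c, was the mitotic kinesin that did not pass the test, with a change of -0.15 in B6 (limma adjusted p = 0.36) and -0.06 in A/J (limma adjusted p = 0.73). Its replicates lay between 4.73 and 5.53 over all 12 groups, under the median of all probe sets throughout.

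**Figure D2:**
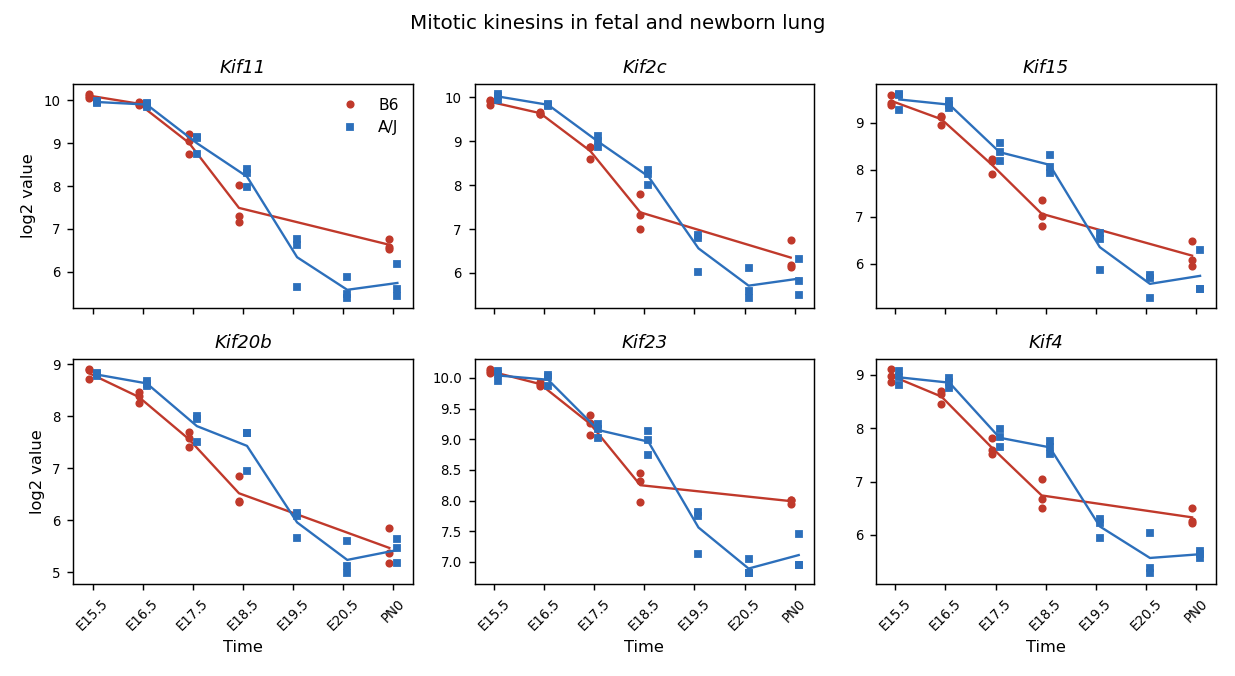
Log2 level (y axis) of 6 mitotic kinesins at each time (x axis, E15.5 to PN0) in B6 and A/J lung, with a point for each replicate and lines through the group means. Levels are close in the 2 strains to E17.5, lower in B6 at E18.5, and lowest in A/J at E20.5 or PN0 and in B6 at PN0.

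The fall was placed in time by comparing each time with the one before it. Between E15.5 and E16.5 none of the 12 mitotic kinesins was called in B6 or in A/J. In limma's tests of this step 6 had an unadjusted p under 0.05 in B6 and 0 in A/J, with a median of -0.33 in B6 and -0.11 in A/J. Of all 21789 probe sets, 5451 in B6 and 4299 in A/J had an unadjusted p under 0.05 in these tests. By the call, 0.808% of all probe sets fell at this step in B6 and 0.202% in A/J. From E16.5 to E17.5, 10 fell in B6 and 11 in A/J, with a median of -0.82 in each strain, against 1.56% of all probe sets that fell in B6 and 4.15% in A/J. From E17.5 to E18.5, 11 fell in B6, with a median of -1.02 (1.61% of all probe sets fell), whereas 3 fell in A/J, namely Kif11, Kif20a and Kif2c, with changes of -0.78, -0.79 and -0.79 (0.367% of all probe sets fell). The median over all probe sets was 0.12 at this step in A/J and 0.01 once each array was centred on its median. The counts stayed at 11 in B6 and 3 in A/J after that centring.

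In A/J the next day, E18.5 to E19.5, held the largest step, with 11 mitotic kinesins lower, a median of -1.41 and the extreme in Kif11 at -1.88, a 3.68-fold change (limma adjusted p = 1.2e-07). Of all probe sets, 3.1% fell at this step. From E19.5 to E20.5 the mitotic kinesins Kif18b, Kif20a, Kif22, Kif23, Kif2c and Kif4 fell (0.257% of all probe sets fell), but this count of 6 rested on single replicates. It was 0 in a fit of these 2 groups alone, 0 without A/J replicate 1 at E19.5 or replicate 3 at E20.5, 1 without replicate 3 at E19.5 or replicate 2 at E20.5, and 10 without replicate 2 at E19.5. The step from E20.5 to PN0, just before and just after birth, spanned hours and not a day. Over it no mitotic kinesin was called in A/J by limma, 1 had an unadjusted p under 0.05, and the class median was 0.16. Of all 21789 probe sets, 6776 had an unadjusted p under 0.05 in limma's tests of this step, and 1.95% fell by the call. At E20.5 the A/J group means of all mitotic kinesins but Kif23 lay under the median of all probe sets (6.41). Kif18a and Kif20b stood at 5.24, near the unchanged Kif2b at 5.05. Such low levels limit how far a further fall could be seen. In B6, where PN0 followed E18.5 directly, 8 fell over that interval with a median of -0.67, led by Kif20b at -1.05 and Kif2c at -1.02 (3.36% of all probe sets fell). Without B6 replicate 2 at E18.5 this count was 5.

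Expressed as the share of each gene's own fall from E15.5 to PN0, the 11 falling mitotic kinesins had covered a median of 73% by E18.5 in B6 (from 68.7% for Kif20b to 93.6% for Kif18a), against 39.5% by E18.5 in A/J (from 32.4% for Kif18b to 48.9% for Kif20a). At E17.5 the medians were 39.9% in B6 and 29.3% in A/J. A/J lungs had covered 84.2% by E19.5 and 104% by E20.5, a median level just under that at PN0. Kif18a had the largest share at E17.5 in both strains, with 60.4% of its fall in B6 and 38.9% in A/J. Kif11 had the smallest, with 31.6% in B6, a value that Kif2c shared, and 22.8% in A/J. A share also depends on the size of the whole fall. That of Kif18a was the smallest of the 11, at -2.05 in B6 and -2.43 in A/J. By E17.5 Kif18a had changed by -1.24 in B6 and -0.95 in A/J. Kif15 had changed by -1.36 and -1.12, and Kif4 by -1.34 and -1.13, in the same order. B6 lungs at PN0 were a day younger than A/J lungs at PN0, so the shares of B6 and A/J rest on unlike end points. These shares describe the group means and were not tested.

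Of 21 partners of the mitotic kinesins in spindle, kinetochore and midzone, 21 fell from E15.5 to PN0 in each strain. Of all probe sets, 13.4% fell in B6 and 11.8% in A/J. The partners had a median change of -2.53 in B6 and -3.05 in A/J. Among them, the kinetochore subunit Nuf2 changed by -3.14 in B6 and -3.98 in A/J. Prc1, which recruits Kif4 to the midzone, changed by -2.74 in B6 and -3.52 in A/J, and Racgap1, the partner of Kif23 in centralspindlin, by -2.44 in B6 and -3.25 in A/J. Cenpe, a kinetochore kinesin whose symbol falls outside the family's naming, changed by -3.05 in B6 and -3.66 in A/J.

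Most of the mitotic kinesins also had a promoter motif in common that the choice of members did not use. RefSeq windows of 300 bases (250 before and 50 after the start of transcription, GRCm38.p6) were matched to 34 of the 42 members, and for the 4 members with 2 windows the first listed was taken, as for all genes. They were searched on both strands for TTTGAA, the core of the cell cycle genes homology region (CHR) known from promoters of G2/M genes, for CCAAT, for GTTGCC, a part of the X-box that RFX factors bind at ciliary genes, and for the forkhead site GTAAACA. The CHR core TTTGAA stood in 9 of 11 mitotic windows (81.8%), in 1 of 8 ciliary (12.5%), in 0 of 11 transport and in 1 of 4 other windows, against 18.1% of the windows of all 27025 genes. In 7 of those 9 mitotic genes it began within 20 bases of the start, a count given without the share of all windows. The mitotic windows without TTTGAA were those of Kif18a, which fell in both strains, and Kif2b, which did not. The ciliary window with TTTGAA was that of Kif27, which held 3 matches, and Kif27 rose in A/J (0.90). Among the other kinesins it was that of Kif26b, 9 bases before the start, and Kif26b was not called at PN0. CCAAT stood in 63.6% of mitotic, 62.5% of ciliary and 27.3% of transport windows, against 37.9% of all windows. GTTGCC stood in 4 of 8 ciliary windows (50%), 27.3% of transport and 18.2% of mitotic windows, against 12.7% of all. GTAAACA stood in no member's window and in 3.55% of all. None of the matches in the members overlapped, and a match is a description of letters in this window.

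The windows of Kif11, Kif15, Kif22 and Kif4 are shown because they place TTTGAA beside the start, and those of Kif24 and Kif9 as ciliary kinesins that moved in opposite directions. Capitals mark the CHR core TTTGAA, the CCAAT box and the motif GTTGCC. Where the CHR core lies on the opposite strand it reads TTCAAA, and a CCAAT box there reads ATTGG. Kif11 lies at chr19:37376132-37376431 on the + strand, Kif15 at chr9:122950831-122951130 on the + strand, Kif22 at chr7:127042371-127042670 on the - strand and Kif4 at chrX:100625815-100626114 on the + strand. Kif24 lies at chr4:41464799-41465098 on the - strand and Kif9 at chr9:110476708-110477007 on the + strand.
Kif11: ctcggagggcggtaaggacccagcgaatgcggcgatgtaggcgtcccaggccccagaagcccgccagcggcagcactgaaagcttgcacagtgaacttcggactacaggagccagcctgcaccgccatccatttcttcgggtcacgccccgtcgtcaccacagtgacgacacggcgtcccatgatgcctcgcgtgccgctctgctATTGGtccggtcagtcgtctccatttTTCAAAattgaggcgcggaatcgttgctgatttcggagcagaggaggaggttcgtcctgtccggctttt
Kif15: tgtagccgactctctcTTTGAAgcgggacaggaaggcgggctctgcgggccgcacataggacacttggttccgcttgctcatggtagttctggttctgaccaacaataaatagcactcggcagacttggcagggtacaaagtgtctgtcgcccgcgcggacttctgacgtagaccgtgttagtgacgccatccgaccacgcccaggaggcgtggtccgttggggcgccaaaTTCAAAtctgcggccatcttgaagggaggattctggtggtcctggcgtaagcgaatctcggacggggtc
Kif22: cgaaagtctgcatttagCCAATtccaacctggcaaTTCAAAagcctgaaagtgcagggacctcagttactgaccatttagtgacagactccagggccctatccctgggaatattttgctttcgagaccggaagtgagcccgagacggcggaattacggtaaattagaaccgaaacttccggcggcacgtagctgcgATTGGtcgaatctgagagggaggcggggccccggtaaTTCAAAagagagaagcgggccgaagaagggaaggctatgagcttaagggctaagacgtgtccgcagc
Kif4: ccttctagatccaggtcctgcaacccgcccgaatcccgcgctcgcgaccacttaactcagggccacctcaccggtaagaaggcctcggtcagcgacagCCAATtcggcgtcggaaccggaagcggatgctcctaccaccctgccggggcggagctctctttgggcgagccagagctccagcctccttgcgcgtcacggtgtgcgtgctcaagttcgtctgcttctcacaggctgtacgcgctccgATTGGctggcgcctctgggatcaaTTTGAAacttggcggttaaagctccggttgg
Kif24: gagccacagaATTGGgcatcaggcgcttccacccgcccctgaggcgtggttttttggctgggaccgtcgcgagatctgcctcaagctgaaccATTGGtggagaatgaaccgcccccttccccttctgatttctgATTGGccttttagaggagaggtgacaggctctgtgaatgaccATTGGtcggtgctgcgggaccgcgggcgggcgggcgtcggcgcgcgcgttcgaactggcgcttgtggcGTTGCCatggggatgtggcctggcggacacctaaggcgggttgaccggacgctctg
Kif9: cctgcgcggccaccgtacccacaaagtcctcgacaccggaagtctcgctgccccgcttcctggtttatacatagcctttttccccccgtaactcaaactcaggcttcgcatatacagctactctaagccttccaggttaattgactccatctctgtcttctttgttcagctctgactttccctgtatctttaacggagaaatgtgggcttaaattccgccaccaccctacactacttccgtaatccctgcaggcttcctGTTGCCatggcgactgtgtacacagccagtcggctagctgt
TTTGAA began 19 bases before the start in Kif11 and Kif15, 17 before in Kif22 and 20 after in Kif4. The Kif24 window held 4 CCAAT boxes and a GTTGCC 6 bases before the start but no TTTGAA, and the Kif9 window held 1 GTTGCC.

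Among the ciliary kinesins, Kif24 was the one that fell. Kif24 sits at the mother centriole and holds back the assembly of the primary cilium in cultured cells. It read 6.16, 5.88 and 5.54 at PN0, against 7.02, 7.28 and 6.92 at E15.5, in B6, and 5.98, 6.14 and 5.99 at PN0, against 7.38, 7.44 and 7.26 at E15.5, in A/J. The times did not overlap in either strain, and the change was -1.21 in B6 (limma adjusted p = 3.8e-09) and -1.32 in A/J (SE 0.14, limma adjusted p = 6.2e-10). The step of Kif24 that passed the call in A/J was that from E18.5 to E19.5, at -0.85 (limma adjusted p = 2.4e-05), the same day as the largest step of the mitotic kinesins.

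Kif9 and Kif27, both known from motile cilia, moved the other way. Kif9, a motor of the central pair of the axoneme, read 6.02, 6.32 and 6.39 at PN0, against 5.63, 5.76 and 5.47 at E15.5, in B6. Over the A/J series it read 5.47, 5.44 and 5.73 at E15.5, 6.14, 6.00 and 5.90 at E16.5, 6.62, 6.38 and 6.32 at E17.5, 6.89, 6.69 and 6.89 at E18.5, 6.87, 6.58 and 6.63 at E19.5, 6.81, 6.77 and 6.55 at E20.5, and 6.30, 6.24 and 6.39 at PN0. In A/J it climbed to E18.5 and lay lower again at PN0, and in both strains PN0 was above every replicate at E15.5. The change from E15.5 to PN0 was 0.62 in B6 (limma adjusted p = 6e-06) and 0.76 in A/J (SE 0.10, limma adjusted p = 2e-07). The B6 call sat at the 1.5-fold limit, with a fold of 1.54, and was lost without B6 replicate 3 at E15.5 or at PN0. Kif27, which builds the central pair with the kinase Stk36 in mouse, read 5.95, 5.91 and 5.94 at PN0, against 5.49, 5.62 and 5.49 at E15.5, in B6, and 6.25, 6.40 and 6.21 at PN0, against 5.34, 5.23 and 5.59 at E15.5, in A/J. The groups were apart in both strains. The change was 0.40 in B6 (limma adjusted p = 3e-04), short of 1.5-fold, and 0.90 in A/J (limma adjusted p = 3.2e-10).

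Kif3a and Kif3b form the motor of kinesin-2, which carries intraflagellar transport to the tip of the cilium. Kif3a read 7.69, 7.49 and 7.42 at PN0, against 8.10, 8.12 and 7.93 at E15.5, in B6, and 7.51, 7.88 and 7.60 at PN0, against 8.02, 8.22 and 7.97 at E15.5, in A/J. PN0 lay below E15.5 without overlap in both strains, by -0.52 in B6 (limma adjusted p = 3.7e-05) and -0.41 in A/J (limma adjusted p = 7e-04), changes of less than 1.5-fold. Kif3b changed by 0.06 in B6 (limma adjusted p = 0.45) and by 0.35 in A/J (limma adjusted p = 2e-05). Kifap3, which links the pair to cargo, changed by -0.76 in B6 and -0.72 in A/J and was called in both. The other ciliary kinesins were not called in either strain. Kif17, another kinesin-2 motor, changed by -0.46 in B6 and -0.21 in A/J, and Kif7, the Hedgehog regulator of the ciliary tip, by -0.18 in each strain. Kif6 changed by -0.34 in B6 and -0.13 in A/J, and Kif19a, which trims cilium length, by 0.14 in B6 and 0.12 in A/J.

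Of 21 intraflagellar transport genes, 8 fell in each strain, against 13.4% of all probe sets in B6 and 11.8% in A/J. Their median change was -0.43 in B6 and -0.33 in A/J. The largest were Ttc21b, a retrograde transport subunit, at -1.21 in B6 and -1.08 in A/J, and Ift122 at -1.15 in B6 and -0.87 in A/J. Of 18 motile cilia genes measured, 12 rose in B6, and 15 rose and 1 fell in A/J, with medians of 1.1 in B6 and 1.27 in A/J. Over all probe sets, 12.7% rose in B6 and 13.7% in A/J. The radial spoke head gene Rsph4a changed by 1.35 in B6 and 2.38 in A/J, and the axonemal dynein heavy chain Dnah6 by 1.78 in B6 and 1.71 in A/J.

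**Figure D3:**
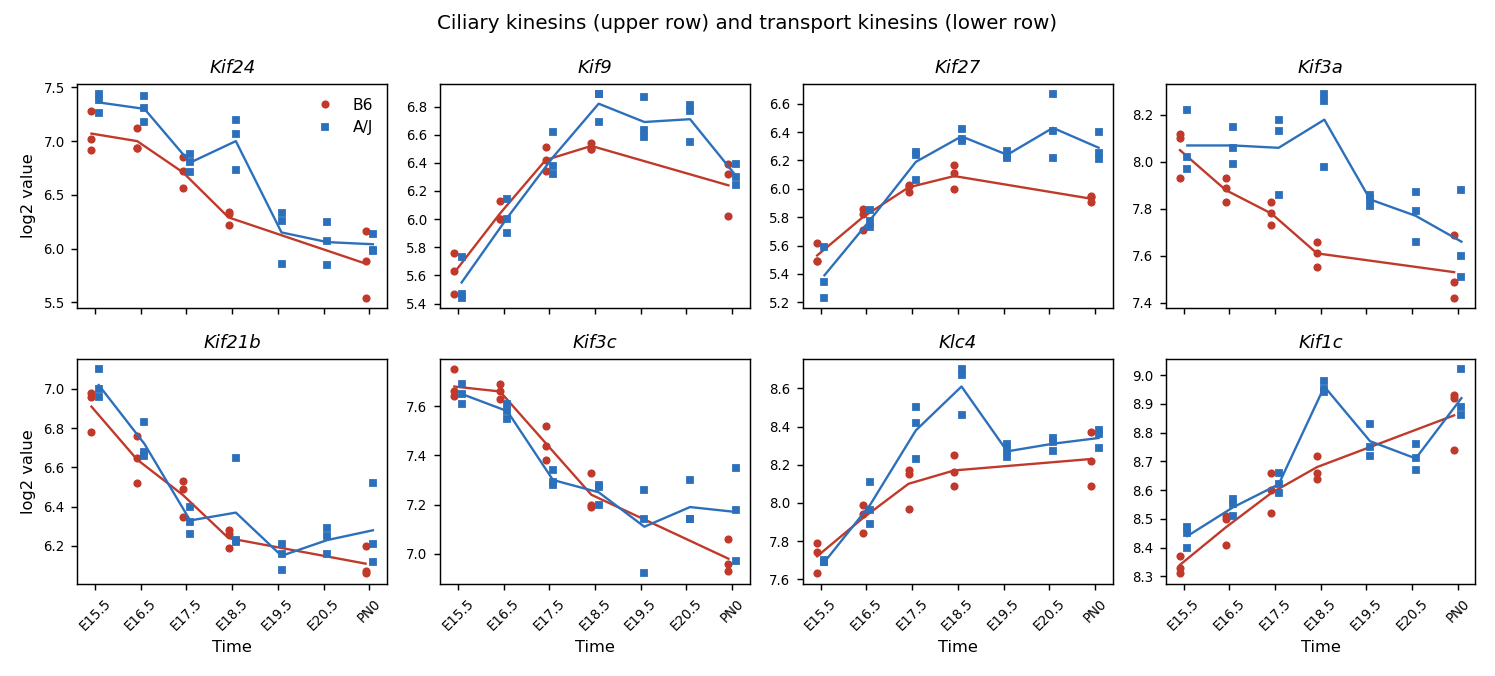
Log2 level (y axis) of 4 ciliary kinesins (Kif24, Kif9, Kif27, Kif3a) and 4 transport kinesins (Kif21b, Kif3c, Klc4, Kif1c) at each time (x axis, E15.5 to PN0) in B6 and A/J lung, with a point for each replicate and lines through the group means. Kif24 fell by 1.32 in A/J while Kif9 and Kif27 rose by 0.76 and 0.90, and the 4 transport kinesins stayed within 0.80 of their level at E15.5 when measured at PN0.

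Of the transport kinesins, Kif21b fell in both strains. Kif21b, a kinesin-4 motor that also damps microtubule growth and is known from neurons and lymphocytes, read 6.07, 6.06 and 6.20 at PN0, against 6.98, 6.78 and 6.96 at E15.5, in B6, and 6.12, 6.21 and 6.52 at PN0, against 7.0, 7.10 and 6.96 at E15.5, in A/J. There was no overlap, and the change was -0.80 in B6 (limma adjusted p = 3.2e-08) and -0.74 in A/J (SE 0.10, limma adjusted p = 1.4e-07). Kif3c, a kinesin-2 motor of neurons, read 6.96, 6.93 and 7.06 at PN0, against 7.66, 7.75 and 7.64 at E15.5, in B6, and 6.97, 7.18 and 7.35 at PN0, against 7.61, 7.69 and 7.65 at E15.5, in A/J. It was lower at PN0 in every replicate of both strains, with a call in B6 (-0.70, limma adjusted p = 6.7e-09) and a change of -0.48 in A/J (limma adjusted p = 5.4e-06), short of 1.5-fold. The mean of 7 neuron genes lay between 5.55 and 5.88 in all 36 replicates, but its genes moved in both directions. Stmn2 rose by 1.77 in B6 and 1.69 in A/J, while Tubb3 changed by -0.47 in B6 and -0.57 in A/J and Elavl4 by -0.40 in B6 and -0.30 in A/J, short of 1.5-fold. The part of neurons in the changes of Kif21b and Kif3c was not tested.

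Klc4, a light chain that ties kinesin-1 to its cargo, rose in A/J. It read 8.09, 8.37 and 8.22 at PN0, against 7.63, 7.79 and 7.74 at E15.5, in B6 (0.51, limma adjusted p = 3.1e-06), and 8.36, 8.38 and 8.29 at PN0, against 7.69, 7.69 and 7.70 at E15.5, in A/J (0.65, SE 0.08, limma adjusted p = 3.9e-08). PN0 stood above E15.5 without overlap in each strain, and the change was 1.42-fold in B6 and 1.57-fold in A/J. Kif1c, a kinesin-3 motor of vesicles, read 8.93, 8.74 and 8.92 at PN0, against 8.31, 8.37 and 8.33 at E15.5, in B6, and 8.86, 9.02 and 8.89 at PN0, against 8.45, 8.40 and 8.47 at E15.5, in A/J. The times did not overlap, with changes of 0.53 in B6 and 0.48 in A/J, and the second probe set of Kif1c gave 0.58 in B6 and 0.70 in A/J. The related Kif1b, which moves mitochondria and vesicles, changed by 0.49 in each strain, and Kif13b by 0.39 in B6 and 0.31 in A/J, each under 1.5-fold at PN0. In A/J at E18.5 Klc4 and Kif13b were called above E15.5, by 0.92 (1.89-fold) and 0.63 (1.54-fold). In B6 at E18.5 each was 0.45 above E15.5, without a call. Between the strains at E18.5 neither was called. B6 minus A/J was -0.45 for Klc4 (limma adjusted p = 1.9e-04), short of 1.5-fold. For Kif13b it was -0.09 (limma adjusted p = 0.45), and the groups overlapped.

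Kif5b, the heavy chain of kinesin-1 in most tissues, differed little between the ends of the series but dipped before birth. In B6 its replicates read 9.79, 9.83 and 9.81 at E15.5, 9.17, 9.42 and 9.22 at E18.5, and 9.54, 9.82 and 9.66 at PN0. In A/J they read 9.81, 9.86 and 9.77 at E15.5, 9.31, 9.33 and 9.33 at E20.5, and 9.73, 9.72 and 9.64 at PN0. The newborn replicates all lay above those of the last fetal time in their strain, by 0.40 in B6 (limma adjusted p = 2e-04) and by 0.37 in A/J (limma adjusted p = 8e-04), both short of 1.5-fold. The neuronal heavy chains Kif5a and Kif5c had no group mean above the median of all probe sets. Of 15 measured cargo adaptors of kinesin-1 and related motors, 4 rose in B6 and 5 in A/J, with a median of 0.20 in each strain. Trak1, which couples kinesin-1 to mitochondria, changed by 0.85 in B6 and 0.97 in A/J, and Spag9 by 0.82 in B6 and 0.77 in A/J. Of 19 subunits and regulators of dynein and dynactin, the motor that runs the other way, 3 rose and 1 fell in each strain. Over all probe sets, 12.7% rose and 13.4% fell in B6, and 13.7% rose and 11.8% fell in A/J.

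Kif12, an epithelial kinesin known from kidney, fell early. Its B6 replicates read 6.37, 6.31 and 6.38 at E15.5, 6.00, 6.12 and 5.93 at E16.5, 5.74, 5.65 and 5.78 at E17.5, 5.83, 5.69 and 5.65 at E18.5, and 5.59, 5.66 and 5.52 at PN0. Its A/J replicates read 6.61, 6.62 and 6.64 at E15.5, 5.93, 6.03 and 6.20 at E16.5, 5.64, 5.61 and 5.83 at E17.5, 5.25, 5.41 and 5.51 at E18.5, and 5.60, 5.45 and 5.76 at PN0. All of these later replicates lay below E15.5 in both strains, with a change at PN0 of -0.76 in B6 (limma adjusted p = 6.2e-08) and -1.02 in A/J (SE 0.10, limma adjusted p = 1.7e-10). Kif26a and Kif26b, kinesins that signal rather than step, were not called at PN0. Nor was Kif2a, a microtubule depolymerase as Kif2c is, which was grouped outside the mitotic class that holds Kif2b and Kif2c. Kif26a read 7.58, 7.68 and 7.64 at PN0, against 7.18, 7.31 and 7.34 at E15.5, in B6 (0.36), and 7.57, 7.77 and 7.80 at PN0, against 7.26, 7.24 and 7.37 at E15.5, in A/J (0.42). Kif2a read 8.77, 8.76 and 8.62 at PN0, against 9.03, 8.96 and 8.92 at E15.5, in B6 (-0.25), and 8.59, 8.83 and 8.54 at PN0, against 9.10, 9.05 and 8.86 at E15.5, in A/J (-0.35). For both genes the times did not overlap in either strain, although the changes were short of 1.5-fold. Kif26b read 6.28, 6.17 and 6.19 at PN0, against 6.62, 6.53 and 6.47 at E15.5, in B6 (-0.33), and 6.44, 6.57 and 6.37 at PN0, against 6.84, 6.33 and 6.39 at E15.5, in A/J (-0.06). Its times were apart in B6 and overlapped in A/J, where the change was 0.10 without replicate 1 at E15.5.

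Over all times together, limma's F test (adjusted p under 0.01 and at least 2-fold between the highest and lowest time) called 12 kinesins in B6, the 11 mitotic kinesins and Kif24, against 14.4% of all probe sets. In A/J it called 15, which were the 11 mitotic kinesins, the ciliary Kif24, Kif9 and Kif27, and Kif12, against 17.8% of all probe sets. B6 was sampled without E19.5 and E20.5, so the 2 counts do not rest on the same days.

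Between the strains, no kinesin was called at E15.5, E16.5 or E17.5. The limma tests at these times gave 3, 9 and 5 of the 42 kinesins with an unadjusted p under 0.05. Of all 21789 probe sets, 2412, 5734 and 6026 had an unadjusted p under 0.05 in the same tests. Over all probe sets 0.863%, 1.18% and 1.75% were called in either direction. The nearest to a call was Kif17, which read 6.21, 6.14 and 6.08 in B6 and 5.44, 5.45 and 5.84 in A/J at E17.5, with no overlap and a difference of 0.57 (limma adjusted p = 0.0044), just under 1.5-fold. Without A/J replicate 3 or B6 replicate 3 at E17.5, or A/J replicate 1 at E16.5, 1 kinesin was called higher in B6 at that time. At E15.5 Kif17 read 6.11, 6.12 and 6.19 in B6 and 5.68, 5.56 and 5.98 in A/J, and by PN0 the strains overlapped.

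At E18.5, B6 lungs gave lower values of the mitotic kinesins than A/J lungs. Of the 42 kinesins, 12 were lower in B6, against 3.04% of all probe sets that were lower. They were the 11 mitotic kinesins other than Kif2b, and Kif24, and the median difference of the mitotic class was -0.80. Over all probe sets the median difference was -0.13, and it became -0.04 once each array was centred on its median. With that centring 10 kinesins were lower, without Kif14 and Kif20a, and with quantile normalization 9, without Kif11, Kif14 and Kif20a. The second, dimmer probe set of Kif14 differed by -0.27 (limma adjusted p = 0.058).

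The widest of the kinesin differences was that of Kif15, which read 7.01, 7.36 and 6.81 in B6 and 8.06, 8.30 and 7.93 in A/J (-1.04, SE 0.19, limma adjusted p = 2.3e-04). Kif4 read 6.67, 7.05 and 6.51 in B6 and 7.75, 7.65 and 7.52 in A/J (-0.90, SE 0.15, limma adjusted p = 4.4e-05). Kif18a read 6.03, 6.31 and 5.88 in B6 and 6.98, 7.12 and 6.84 in A/J (-0.91). For all of these, every B6 replicate lay below every A/J replicate. The same held for Kif20b at 6.37, 6.85 and 6.35 in B6 and 7.68, 7.68 and 6.94 in A/J (-0.91). It held for Kif22 at 7.12, 7.38 and 6.70 in B6 and 7.86, 8.10 and 7.86 in A/J (-0.87), and for Kif2c at 7.33, 7.79 and 7.01 in B6 and 8.25, 8.34 and 8.0 in A/J (-0.82). The second B6 replicate, the mean of arrays 2 and 2b, was the highest of its group in all 11 mitotic kinesins that were called.

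Kif18b read 7.45, 7.69 and 7.17 in B6 and 8.28, 8.30 and 8.07 in A/J (-0.78), and Kif23 read 8.32, 8.45 and 7.98 in B6 and 8.99, 9.14 and 8.75 in A/J (-0.71). Kif14 read 6.20, 6.48 and 6.38 in B6 and 7.06, 7.10 and 6.78 in A/J (-0.63), and Kif20a read 7.25, 7.64 and 7.21 in B6 and 7.96, 8.28 and 7.74 in A/J (-0.62). These groups too were separate, although the gap between the nearest Kif20a replicates was narrow. Kif11 was the exception, since its second B6 replicate passed the lowest A/J replicate, with 7.31, 8.02 and 7.15 in B6 and 8.30, 8.40 and 7.97 in A/J (-0.73, SE 0.21, limma adjusted p = 0.0098). The ciliary Kif24 read 6.32, 6.22 and 6.34 in B6 and 7.20, 7.07 and 6.73 in A/J, without overlap (-0.71, limma adjusted p = 3e-04). Of the 21 mitotic partners, 17 were lower in B6 at E18.5, with a median of -0.72, against 3.04% of all probe sets that were lower.

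**Figure D4:**
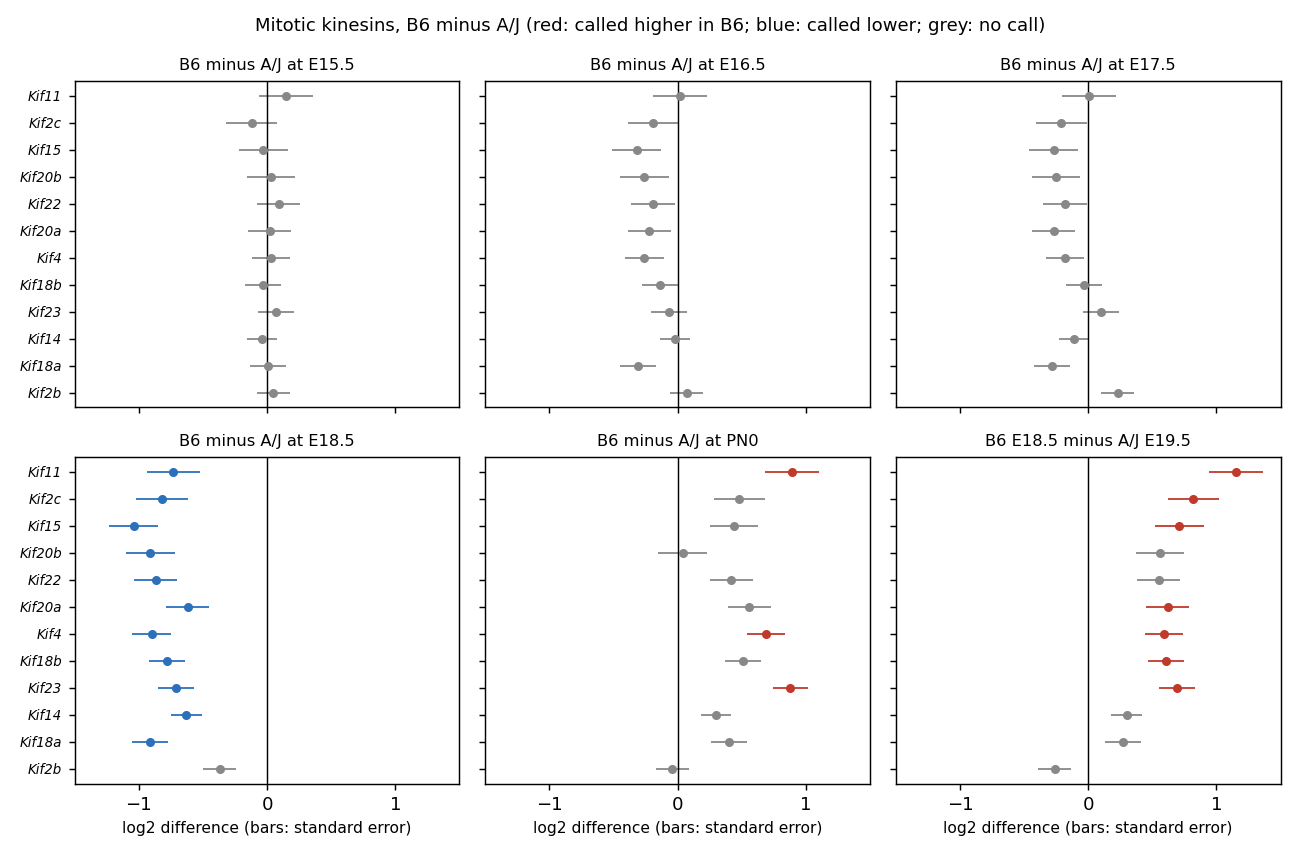
Difference of B6 minus A/J on the log2 scale (x axis) for each mitotic kinesin (y axis), in a panel for each shared time and 1 for B6 at E18.5 against A/J at E19.5, with bars of 1 SE. Red marks a call higher in B6, blue a call lower in B6 and grey no call. The points lie near 0 at E15.5 (median 0.03), to the left at E18.5 (median -0.80) and mostly to the right at PN0 (median 0.46) and in the panel a day before birth.

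The groups at E18.5 also differed in marker genes of a neighbouring tissue. Averaged over 8 markers of stratified epithelium from esophagus and upper airway, such as Krt5 and Krt13, the level was 5.71, 6.02 and 5.47 in B6 replicates at E18.5 and 7.18, 7.04 and 6.87 in A/J replicates at E18.5. Of the 8 genes, 6 were lower in B6, against 3.04% of all probe sets. Since all A/J replicates at this time were high in these genes, strain and this tissue cannot be told apart at E18.5. Within A/J at other late times, where replicates differed in it, the mean over the 12 mitotic kinesins was 6.52, 6.01 and 6.47 at E19.5 with esophagus means of 5.55, 7.26 and 5.67. At E20.5 the kinesin means were 5.93, 5.58 and 5.53 with esophagus means of 5.60, 7.16 and 7.13, and at PN0 they were 5.67, 6.03 and 5.72 with esophagus means of 5.67, 7.27 and 5.65. The replicates high in esophagus genes were the lower ones in mitotic kinesins at E19.5 and E20.5 and the higher one at PN0.

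At E15.5 the marker genes of liver were high in replicate 1 of both strains (8.81 in B6 and 7.64 in A/J, against at most 5.62 in the other replicates of that time), and so were those of heart (8.65 in B6, against 7.64 and 7.39 in the others, and 9.84 in A/J, against 7.60 and 7.63). The mitotic means there were 8.92, 8.92 and 8.79 in B6 and 8.90, 8.89 and 8.78 in A/J, with the first replicate close to the second. Without the 9 replicates that were high in liver, heart or esophagus genes, 11 mitotic kinesins still fell from E15.5 to PN0 in each strain. None of the 9 came from E18.5, so this leaves the strain comparison at that time as it was. Genes of thymus averaged between 4.95 and 5.33 in all replicates, and those of lung epithelium between 11.91 and 12.07 at PN0, against 9.25 to 9.80 at E15.5, over both strains. The mean of 5 erythroid genes was 7.43, 7.58 and 7.39 at PN0, against 9.17, 8.59 and 8.68 at E15.5, in B6, and 8.07, 7.95 and 8.0 at PN0, against 8.75, 8.29 and 8.27 at E15.5, in A/J. Its genes moved in both directions. Hbb-y changed by -5.11 in B6 and -4.02 in A/J, and Hba-x by -1.62 in B6 and -1.53 in A/J. Alas2, Epb42 and Slc4a1 rose in A/J, by 1.32, 1.08 and 1.01, and changed by 0.46, -0.27 and -0.19 in B6. Of 7 heart muscle genes, 5 rose from E15.5 to PN0 in each strain, with a median of 1.19 in B6 and 1.07 in A/J. Over all probe sets, 12.7% rose in B6 and 13.7% in A/J. The part of erythroid, epithelial or heart cells in the kinesin changes was not tested.

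On the day of birth the called differences ran the other way. At PN0, 3 kinesins were higher in B6, against 1.67% of all probe sets that were higher. Kif23 read 8.01, 8.01 and 7.95 in B6 and 6.94, 7.45 and 6.95 in A/J (0.88, SE 0.14, limma adjusted p = 3.3e-05). Kif11 read 6.77, 6.53 and 6.59 in B6 and 5.43, 6.19 and 5.61 in A/J (0.89, SE 0.21, limma adjusted p = 0.003), and Kif4 read 6.50, 6.22 and 6.26 in B6 and 5.70, 5.64 and 5.57 in A/J (0.69, limma adjusted p = 8.2e-04). None of the 3 overlapped between the strains, which passing the call makes likely. The count was 6 without A/J replicate 2 at PN0, which is also the replicate high in esophagus genes, and 5 without B6 replicate 3. B6 pups were a day younger at PN0, so strain and age cannot be told apart there.

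The strains were also set against each other a day before birth, B6 at E18.5 against A/J at E19.5. Here 7 kinesins were higher in B6, against 1.13% of all probe sets that were higher. Kif11 read 7.31, 8.02 and 7.15 in B6 and 6.76, 5.65 and 6.62 in A/J (1.15, SE 0.21, limma adjusted p = 4.7e-04), and Kif2c, Kif15, Kif23, Kif20a, Kif18b and Kif4 differed by 0.82, 0.71, 0.69, 0.62, 0.61 and 0.59. All 7 were free of overlap, which passing the call makes likely, and the count rested on single replicates. It was 1 without A/J replicate 2 at E19.5, 2 without B6 replicate 2 at E18.5, and 0 in a fit of these 2 groups alone. That A/J replicate read lowest in each of the 7 and was high in liver genes (7.14, against 5.63 and 5.81 in the others) as well as in esophagus genes.

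The difference between the strains in the change with age was tested directly. Over the days between E15.5 and E18.5, 8 mitotic kinesins fell further in B6 than in A/J, from Kif15 at -1.01 (limma adjusted p = 0.026) to Kif14 at -0.59 (limma adjusted p = 0.034), against 2.33% of all probe sets, and Kif12 differed the other way, at 0.60 (limma adjusted p = 0.0095), against 0.532%. The Kif12 call was lost without A/J replicate 1 at E18.5, B6 replicate 2 at E15.5 or B6 replicate 1 at E18.5. Once each array was centred on its median, 2 kinesins were called lower in place of 8, and with quantile normalization also 2. The count was 3 without A/J replicate 3 at E15.5, 4 without B6 replicate 2 at E15.5 or B6 replicate 3 at E18.5, and 5 without A/J replicate 2 at E18.5, B6 replicate 1 at E15.5 or B6 replicate 1 at E18.5. Between E15.5 and PN0 Kif23 fell less in B6, by a difference of 0.81 (limma adjusted p = 0.012), against 1.01% of all probe sets.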

How the data were processed

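RNA from the right lungs of B6 and A/J pups was hybridised to Affymetrix Mouse Gene 1.0 ST arrays, and the authors deposited log2 values after RMA, made with Affymetrix Expression Console 1.1 per the submitters' processing notes. RMA fits and quantile-normalizes all arrays together, which acts against a shift common to most genes. A shift remained in these values, with array medians between 6.34 and 6.54. For B6 minus A/J at E18.5 the median over all probe sets was -0.13. Of 35556 probe sets, 21789 had 1 gene symbol, 1621 several and 12146 none in the platform annotation, and those with 1 symbol were tested. Array 2b of B6 at E18.5 correlated with arrays 1, 2 and 3 of its group at 0.983, 0.988 and 0.981. Its origin is not stated, and it was averaged with array 2. Each replicate was a pool of 3 lungs from 1 litter, so p-values measure the spread between litters.

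The 12 groups were fitted in 1 linear model in limma 3.58.1 (R 4.3.3), with 24 residual and 6.13 prior degrees of freedom and Benjamini-Hochberg adjustment over all probe sets tested. A call needed an adjusted p under 0.05 and a 1.5-fold change. The F test over all times (adjusted p under 0.01, 2-fold) stood in for the functional model of the study's methods. The script was tested on simulated data. The number of arrays limits the precision.

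The members and lists were chosen with earlier results of these data known. Replicate values are given for the 4 members of each class with the largest mean change from E15.5 to PN0 and for members with a called strain difference at a shared time. From a partner list at most 4 genes with the largest change were named. The replicate values of Kif17 and Kif5b, and the naming of Prc1, Racgap1 and Kifap3, were chosen after their values were seen. The alternatives were median centring, quantile normalization, all probe sets, a filter on dim ones, the mean of several probe sets of a gene, other eBayes settings, a fit of the compared groups alone, array 2b left out or used in place of array 2, other fold limits, a replicate block and leaving out each replicate. The fit without the 9 replicates whose liver, heart or esophagus mean lay over 1 log2 unit above the lowest of their group was added after seeing the data. Promoter windows were searched with Python 3.11.15 and figures drawn with matplotlib 3.10.9.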

Additional observations from a re-analysis of the deposited data

Results flagged for a closer look

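Of the kinesins, 10 changes differed between the strains when the difference itself was tested in limma (B6 minus A/J, adjusted over all probe sets). From E15.5 to E18.5 8 mitotic kinesins fell further in B6 by the log2 differences below. With each array centred on its median, or with quantile normalization, the count was 2 in place of 8, and it was as low as 3 when 1 replicate was left out. Kif15 differed by -1.01 (SE 0.27, adjusted p = 0.026), Kif22 by -0.97 (SE 0.23, adjusted p = 0.013), Kif20b by -0.94 (SE 0.26, adjusted p = 0.029) and Kif4 by -0.93 (SE 0.21, adjusted p = 0.007). Kif18a differed by -0.92 (SE 0.19, adjusted p = 0.0056), Kif23 by -0.78 (SE 0.20, adjusted p = 0.018), Kif18b by -0.75 (SE 0.20, adjusted p = 0.024) and Kif14 by -0.59 (SE 0.17, adjusted p = 0.034). Kif12, which fell less in B6 over the same interval, differed by 0.60 (SE 0.14, adjusted p = 0.0095). From E15.5 to PN0, Kif23 fell less in B6, by a difference of 0.81 (SE 0.20, adjusted p = 0.012). The A/J replicates at E18.5 were those high in esophagus genes, and their part in the first 9 differences cannot be told apart from strain.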

How the results depend on the processing

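The 11 mitotic falls from E15.5 to PN0 were found in each strain under every alternative run, and other counts moved as follows. Counts are of kinesins, and interaction means the strain difference in change. With each array centred on its median, the A/J E20.5 against E19.5 count of mitotic falls was 3 in place of 6, and the E18.5 interaction gave 2 lower in place of 8, as with quantile normalization. With all probe sets tested, that A/J step gave 3. With several probe sets averaged, transport kinesins that rose in A/J were 2 in place of 1 and 1 kinesin was higher in B6 at E17.5. Kinesins with a PN0 interaction above 0 were 2 in place of 1 without dim probe sets, with trend and robust eBayes, with array 2b in place of array 2, in a fit of the compared groups alone and with the replicate block. In the fit of the compared groups, the A/J E20.5 step gave 0, and B6 at E18.5 against A/J at E19.5 gave 0 higher in place of 7.

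With no fold limit, B6 gave 2 ciliary rises and 4 falls, 7 transport rises and 4 falls, and 1 rise and 3 falls of other kinesins. A/J gave 3 ciliary rises and 2 falls, 5 transport rises and 4 falls, and 1 rise and 2 falls of other kinesins. Of all 21789 probe sets, 5312 rose and 5797 fell in B6 with no fold limit, and 5484 rose and 5622 fell in A/J. Then 1 kinesin was higher in B6 at E16.5, 3 were higher and 1 lower at E17.5, and 3 higher and 24 lower at E18.5. At PN0 6 were higher and 3 lower, and 1 PN0 interaction was lower. Of all probe sets, 710 were higher at E16.5, 903 higher and 1467 lower at E17.5, and 890 higher and 6037 lower at E18.5. At PN0 1461 probe sets were higher and 2871 lower, and 862 had a lower PN0 interaction. At 2-fold, ciliary rises, transport rises and falls and other falls were 0 wherever they had been called, other than A/J falls of other kinesins. Mitotic falls at 2-fold were 0, 6 and 2 in B6 at the steps to E17.5, E18.5 and PN0, and 2, 0 and 0 in A/J at the steps to E17.5, E18.5 and E20.5. At 2-fold 1 kinesin was lower in B6 at E18.5, 0 higher at PN0, 1 higher a day before birth, and the interactions gave 1 lower and 0 higher at E18.5 and 0 at PN0. Without the 9 replicates, the A/J E20.5 step gave 0, PN0 gave 6 higher in B6, the day before birth 1 and the E18.5 interaction 0 higher.

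Leaving out 1 replicate at a time gave ranges of 0 to 1 for ciliary rises, 1 to 2 for ciliary falls and 0 to 1 for transport rises in B6. The range was 0 to 10 for the A/J E20.5 step and 5 to 8 for the B6 step to PN0. Higher in B6 were 0 to 1 at E16.5 and at E17.5, 3 to 6 at PN0 and 1 to 9 a day before birth. The E18.5 interaction gave 3 to 9 lower and 0 to 1 higher, and that at PN0 0 to 1 lower. The change of Kif26b in A/J (-0.06, adjusted p = 0.76) lay between -0.15 and 0.10 when 1 replicate was left out (0.10, adjusted p = 0.62, without A/J E15.5 replicate 1) and 0.04 without the 9 replicates (adjusted p = 0.86). Of 1276 values of named kinesins under alternatives, 1134 kept their side of the threshold, 125 lost a call, 15 gained one and 2 turned sign.

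Replicate numbers did not pair the samples, since over 198 pairs of same-numbered replicates the correlations ran between -0.41 and 0.39 with a median of -0.015. The replicate block changed no count other than the PN0 interaction (2). Causes of these shifts were not tested.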
